A study of Rattus norvegicus with 8 samples.

Results

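The genes described here are the rat antioxidant and glutathione genes: the enzymes that make, recycle and use glutathione, the peroxiredoxins and thioredoxins, the superoxide dismutases, catalase, the haem oxygenases and Nqo1. They were chosen by name alone, from the gene names in the scanner files: names that start with Gsta, Gstm, Gstp, Gstt, Gsto, Gstk or Mgst, the numbered Gpx, Prdx, Sod and Txnrd genes, and Cat, Txn, Txn1, Txn2, Nqo1, Hmox1, Hmox2, Gclc, Gclm, Gss and Gsr. The array carried 48 such genes on 61 probes. Of these, 43 genes on 52 probes passed the filter on dim probes. It asked for a signal well above background on at least 4 of 8 arrays and for at least 2 usable values per group. The brightest probe that passed stood for its gene. The same filter left 27161 of the 41012 distinct probes of the array.

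The study compared the medial thalamus of 4 male Sprague-Dawley rats given tracheal occlusions, in which the airway of the conscious animal is closed for a few breaths, with that of 4 surgical control rats. The occlusion group went through trials of 3 to 10 closed breaths with about 30 s of recovery in each, once a day over 10 days, and was killed within 10 min of the last session. The control group had daily sessions over the same 10 days with no occlusion. The labels give no age and no difference between the groups other than the treatment. Each animal's total RNA, 1 µg labelled with Cy3, was hybridised to 1 Agilent rat array. The arrays lay on 2 slides, each scanned at its own time, and each slide carried 2 occlusion and 2 control arrays: slide 1 held occlusion 1 and 3 and control 1 and 4, and slide 2 held occlusion 2 and 4 and control 2 and 3.

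Glutathione is a small thiol made by glutamate-cysteine ligase, whose catalytic and modifier subunits are Gclc and Gclm, and glutathione synthetase, Gss. Glutathione peroxidases use it to reduce peroxides, glutathione S-transferases join it to reactive molecules, and glutathione reductase, Gsr, restores its reduced form with NADPH. A parallel system runs from NADPH through thioredoxin reductase and thioredoxin to the peroxiredoxins. Superoxide dismutases turn superoxide into hydrogen peroxide, which catalase, peroxidases and peroxiredoxins remove. In the brain, glutathione and many of its enzymes are richer in astrocytes than in neurons. The transcription factor NRF2, encoded by Nfe2l2 and held down by KEAP1, drives many of these genes through antioxidant response elements.

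The antioxidant genes were split in direction, and no gene passed the test across the array. Of 43 genes, 20 were higher and 23 lower on occlusion arrays, counting Sod1, whose saturated probe gives no direction, among the higher. None reached an adjusted p under 0.05 in the limma test, where 0% of all 27161 probes passed either; the smallest adjusted p among the members, 0.403, was also the smallest on the array. Of the 43, 6 had an unadjusted p under 0.05, 1 higher and 5 lower, against 11.1% of all probes, 6.48% on the higher and 4.6% on the lower side. The 4 occlusion values lay wholly apart from the 4 control values for the brightest probe of 4 genes: Mgst3 was higher, and Gsta3, Mgst1 and Txnrd1 were lower. Over all probes 6.71% separated in this way, 3.9% upwards and 2.82% downwards. Mgst3 and Txnrd1 did so under every one of 5 alternatives tried, Mgst1 under 4 and Gsta3 under 2. Among the 5 was the deposited table, which repeats the same intensities in rounded form, so its outcome was nearly fixed. The 2 for Gsta3 were that table and scaling to the median of kept probes. The median difference of the members was -0.03 on the log2 scale, beside 0.02 for all probes, of which 53.6% were higher on occlusion arrays. All levels below are scaled log2 levels, or log2 of the processed intensity minus the 75th percentile of the same array, and all differences are occlusion minus control on that scale. A level is set only against the same probe on other arrays.

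**Figure D1:**
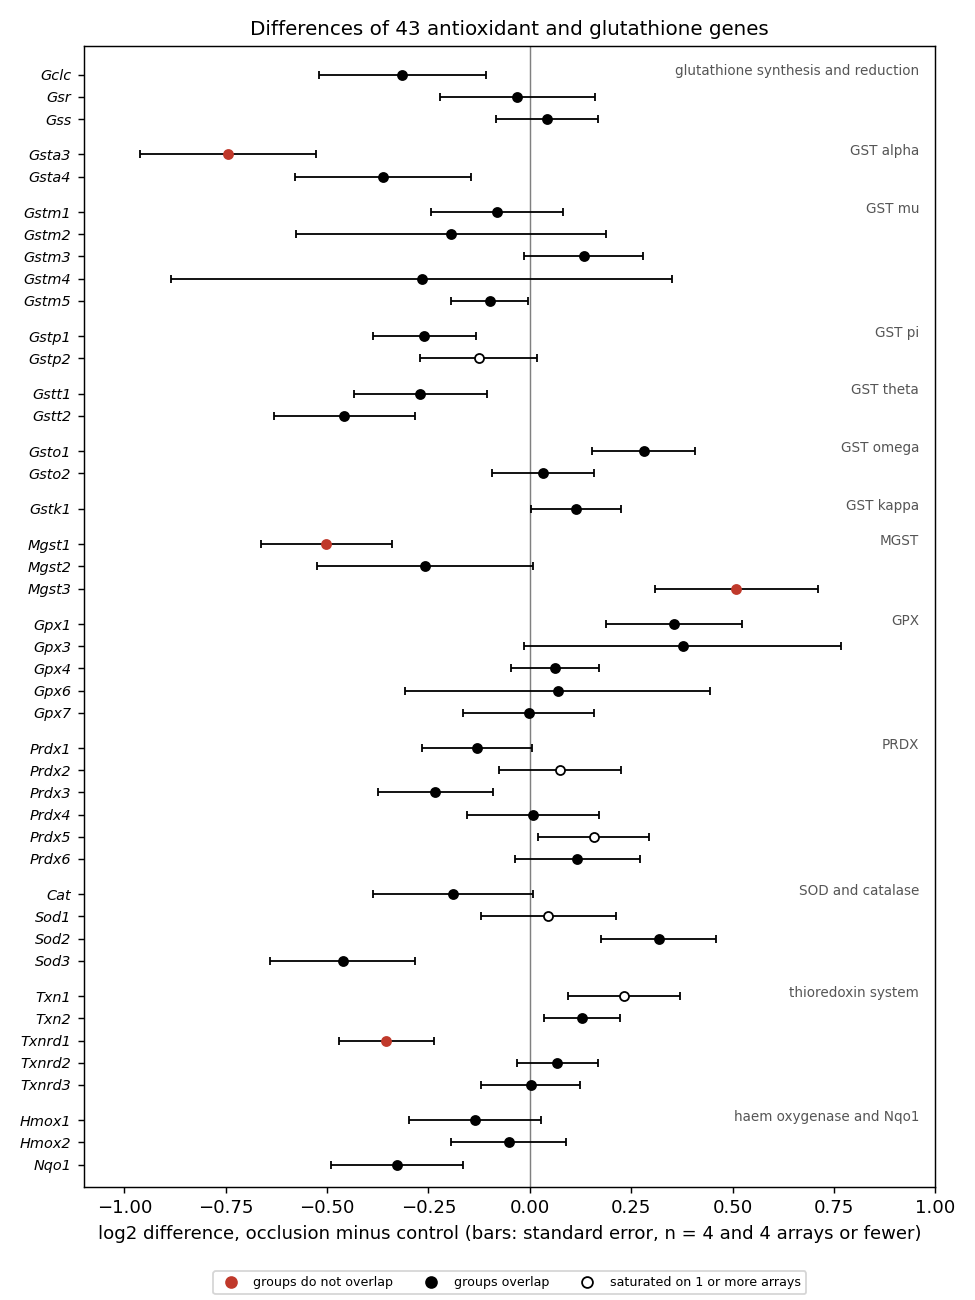
Log2 difference, occlusion minus control, of the 43 antioxidant and glutathione genes, grouped by family; bars are standard errors of the limma fit over 4 and 4 arrays, or fewer where a spot was an outlier. Red points are the 4 genes whose groups do not overlap, from Gsta3 at -0.75 to Mgst3 at 0.51, and open points are the 5 genes with a saturated spot on 1 or more arrays.

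The arrays were of similar brightness, with a 75th percentile between 1439 and 2216 intensity units and 65.0% to 71.6% of probes well above background. Array means of marker lists were taken over markers with a value on all 8 arrays and no saturated spot. Markers of thalamic relay neurons were present: all 9 of those found on the array passed the filter. Of these, 6 were never saturated and all 6 were higher on occlusion arrays, with means of -0.84 to -0.15 on occlusion arrays and -2.23 to -0.60 on control arrays. All 6 markers of reticular and other inhibitory neurons were lower, with means of -0.29 to 1.50 on occlusion arrays and 1.35 to 2.89 on control arrays. All 8 never saturated oligodendrocyte markers, of 11, were lower, and the means over the 7 with all values were 0.77 to 1.61 on occlusion arrays and 1.37 to 2.25 on control arrays. Of 7 never saturated astrocyte markers 5 were lower, and the means over the 5 with all values ran from 0.19 to 0.89 on occlusion arrays and from 0.46 to 1.12 on control arrays. Of 7 choroid plexus and ependyma markers 6 were lower, with means of -1.77 to -1.28 on occlusion arrays and -2.15 to -0.89 on control arrays. The remaining marker in these means, Ttr, was higher by 1.83 (SE 0.69), with every occlusion array above every control array. Of the never saturated markers in the other lists, 4 of 4 pan-neuronal, 4 of 7 endothelial and pericyte, 3 of 7 microglial and 1 of 2 blood markers were higher. None of these markers was called by limma at an adjusted p of 0.05. In tissue RNA, fewer cells of a type and less RNA per cell cannot be told apart, and the part of these markers in the values below was not tested.

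**Figure D2:**
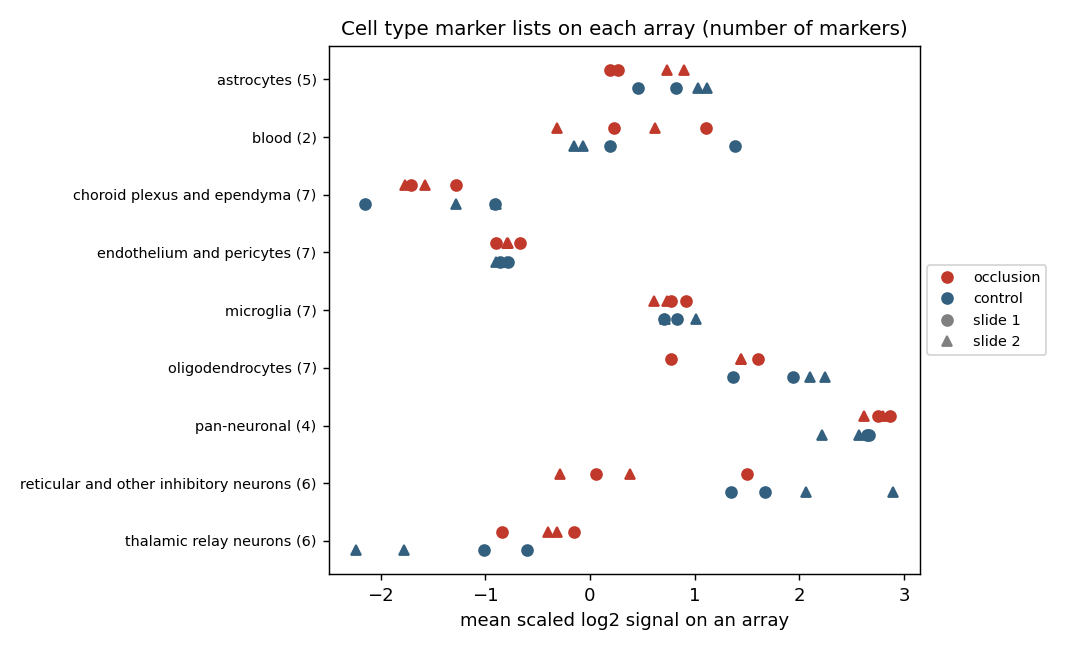
Mean scaled log2 signal of the markers of each cell type on each array, over those with a value on all 8 arrays and no saturated spot (their number in brackets), with occlusion arrays in red above control arrays in blue, circles for slide 1 and triangles for slide 2. The 2 control arrays of slide 2 have the highest means for inhibitory neurons, 2.07 and 2.89, and the lowest for relay neurons, -1.78 and -2.23.

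Among the enzymes that make and recycle glutathione, no gene separated the groups. Gclc, the catalytic subunit of the first enzyme of synthesis, stood at -1.68, -2.07, -2.41 and -1.45 on the occlusion arrays, against -1.64, -1.70, -1.41 and -1.59 on the control arrays. The 2 lowest values, those of occlusion 3 and occlusion 2, set the difference of -0.31 (SE 0.21), while occlusion 4 and occlusion 1 lay within the control values (limma, unadjusted p = 0.163). Without occlusion 3 it was -0.15. Gss, the second enzyme, differed by 0.043 with a 95% interval of -0.24 to 0.33, and Gsr, the reductase, by -0.031 with an interval of -0.47 to 0.41. For both, the interval leaves room for a change in either direction.

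Gclm, the modifier subunit and a widely used NRF2 target, gave no measurement, since its only probe was well above background on 0 of 8 arrays. That probe is shown because its composition is unlike that of the other antioxidant probes (rn3, chr2:218878277-218878336, plus strand; G and C in capitals).
Gclm probe: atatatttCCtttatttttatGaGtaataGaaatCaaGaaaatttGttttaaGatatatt
Its 60 bases are 15% G and C, against a median of 45.0% over the probes of the set, whose second lowest was 25.0%. Of all 41012 probes, 0.039% were at or below the Gclm value. Gpx2, Gpx5 and Gstm6 were likewise well above background on 0 arrays, and Gsta2 was on 1 control array.

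The soluble and microsomal glutathione transferases leaned to the lower side. Of their 17 kept gene names 5 were higher and 12 lower, with a median of -0.20. That median is the value of Gstm2, and the lower side counts Gstm2 and Gstm4, dim genes given with the slide values below. Among them 4 had an unadjusted p under 0.05, against the 11.1% of all probes, and 3 separated the groups, against 6.71%. The count goes by the names on the array, and the pi class names, Gstp1 and Gstp2, are now 1 rat gene with 2 probes. Both kept genes of the alpha and of the theta class were lower, as were both probes of the pi class and 4 of 5 mu class genes, while both omega class genes were higher.

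Gsta3 had the smallest p among the brightest probes. The array names it Gsta3, but the transcript its probe was designed on is now the rat gene Gsta1, and the closely related alpha transferases may share the signal. Its probe, on which the finding rests, lies on rn3 at chr9:20048980-20049039, minus strand.
Gsta3 probe: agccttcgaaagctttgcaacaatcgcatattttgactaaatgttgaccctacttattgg
The level was 3.56, 3.65, 3.83 and 3.51 on the occlusion arrays, against 4.19, 4.74, 4.76 and 3.84 on the control arrays. Every occlusion array lay below every control array, but with a narrow gap: control 4, the lowest control, was 0.0052 above occlusion 3, both on slide 1. With quantile normalisation, with normexp background correction and with the 75th percentile taken without outlier spots, these arrays crossed and the groups of Gsta3 overlapped. The occlusion mean was 0.596-fold the control mean, a difference of -0.75 (SE 0.22, 95% interval -1.24 to -0.25; limma, unadjusted p = 0.0084, adjusted p = 0.403). Within slide 1 it was -0.32 and within slide 2 -1.17. The 2 control arrays with the highest Gsta3, control 2 and control 3, also had the highest inhibitory neuron marker means.

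Gsta4, the alpha transferase with high activity toward the lipid peroxidation product 4-hydroxynonenal, had 1.12, 1.66, 2.14 and 1.84 on the occlusion arrays, against 2.27, 2.07, 2.07 and 1.79 on the control arrays. Occlusion 1 was the lowest array and occlusion 3 was above 3 of the 4 control arrays, so the groups overlapped. The difference was -0.36 (SE 0.22; limma, unadjusted p = 0.131), and -0.17 without occlusion 1. Gstp1, the pi class enzyme, had 2.62, 2.38, 2.78 and 2.51 on the occlusion arrays, against 2.79, 3.04, 2.75 and 2.75 on the control arrays. Of the occlusion arrays, 3 were below every control array, while occlusion 3 lay among them, and the difference of -0.26 (SE 0.13) had an unadjusted p of 0.0716 in limma. It was -0.066 within slide 1 and -0.45 within slide 2. The other pi class probe, named Gstp2 on the array and now a synonym of Gstp1, differed by -0.13 (SE 0.14) and had a saturated spot on at least 1 array.

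Gstt2, a theta class transferase, had 0.085, 0.065, -0.33 and -0.22 on the occlusion arrays, against 0.32, 0.62, 0.52 and -0.040 on the control arrays. Control 4 fell between the occlusion arrays, and the other 3 control arrays were above all of them. The difference was -0.46 (SE 0.17; limma, unadjusted p = 0.0293, adjusted p = 0.417). A second Gstt2 probe gave -0.55 (SE 0.16; limma, unadjusted p = 0.0085), with every occlusion array below every control array, the nearest pair being -1.84 on occlusion 4 and -1.83 on control 4. Gstt1 differed by -0.27 (SE 0.16).

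Gsto1, an omega class enzyme that also reduces dehydroascorbate, leaned the other way. It had 3.43, 3.25, 3.29 and 3.28 on the occlusion arrays, against 3.03, 2.94, 2.83 and 3.33 on the control arrays. Control 4, at 3.33, was above 3 of the occlusion arrays, and the other 3 control arrays were below all 4; the difference was 0.28 (SE 0.13; limma, unadjusted p = 0.0576). Gsto2 differed by 0.032 and Gstk1, the mitochondrial and peroxisomal kappa enzyme, by 0.11, with intervals of -0.26 to 0.32 and -0.14 to 0.37.

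In the mu class the differences between the groups were small beside the spread. Gstm1, a major mu class enzyme, had 2.22, 1.99, 2.23 and 2.66 on the occlusion arrays, against 2.22, 2.33, 2.61 and 2.27 on the control arrays, and occlusion arrays held both the lowest and the highest value. Its difference was -0.081, with an interval of -0.45 to 0.29. Gstm5 differed by -0.10 and Gstm3, now named Gstm7 in the rat, by 0.13. Mu class genes are near copies of each other, and signal shared between them is not resolved by these probes. Gstm2 and Gstm4 belong with the slide values below.

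The microsomal transferases, membrane enzymes of a separate family, held 1 gene that separated the groups downwards and 1 that did so upwards. Mgst1, which protects membranes against lipid peroxides, was lower on all 4 occlusion arrays, and Mgst3, which has glutathione peroxidase and leukotriene synthase activity, was higher on all 4. Both probes are shown (rn3, chr4:175500069-175500128, plus strand, and chr13:83055307-83057071, minus strand).
Mgst1 probe: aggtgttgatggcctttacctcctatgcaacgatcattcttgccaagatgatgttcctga
Mgst3 probe: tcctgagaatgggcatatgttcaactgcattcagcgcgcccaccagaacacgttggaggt
The Mgst1 level was -1.50, -1.18, -0.87 and -0.91 on the occlusion arrays, against -0.75, -0.49, -0.71 and -0.50 on the control arrays. The nearest values, -0.87 on occlusion 3 and -0.75 on control 1, are both from slide 1. The difference was -0.50 (SE 0.16, 95% interval -0.87 to -0.13; limma, unadjusted p = 0.0138, adjusted p = 0.403), and it was nearly equal in the slides, -0.56 within slide 1 and -0.45 within slide 2. The Mgst3 level was 2.95, 2.77, 2.72 and 2.71 on the occlusion arrays, against 2.51, 2.40, 1.67 and 2.54 on the control arrays. Control 3, at 1.67, lay well below the other control arrays, and the difference of 0.51 (SE 0.20; limma, unadjusted p = 0.0342, adjusted p = 0.426) was 0.30 when that array was left out. A brighter Mgst3 probe had a usable spot on only 1 array of each group, at 4.68 on the occlusion array and 3.70 on the control array, and was not used. Mgst2 differed by -0.26 (SE 0.27).

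Of the 5 kept glutathione peroxidases 4 were higher and 1 lower, with a median of 0.07, and none had an unadjusted p under 0.05 on its brightest probe. That median is the value of Gpx6, a dim gene counted among the higher and given with the slide values below. Gpx1, the main cytosolic peroxidase, had 4.59, 4.34, 4.27 and 4.12 on the occlusion arrays, against 4.18, 3.77, 3.70 and 4.25 on the control arrays. The 2 control arrays of slide 2 were below all others, while control 1 and control 4 lay among the occlusion arrays. The difference was 0.36 (SE 0.17; limma, unadjusted p = 0.0657, adjusted p = 0.471), and a second, dimmer Gpx1 probe gave 0.50 (SE 0.13, unadjusted p = 0.00475, adjusted p = 0.403) with every occlusion array above every control array. Gpx4, which reduces lipid hydroperoxides within membranes, had 4.44, 4.34, 4.53 and 4.33 on the occlusion arrays, against 4.38, 4.47, 4.17 and 4.38 on the control arrays. The groups were mixed, and the interval of its difference of 0.062 was -0.19 to 0.31. Gpx3, the secreted plasma enzyme, had the widest spread of the kept peroxidases, from -0.57 to 0.90 on occlusion arrays and from -0.89 to 0.39 on control arrays, with occlusion 3 and control 4 above the rest. Its difference of 0.38 had an SE of 0.39, and Gpx7 differed by -0.003.

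The 6 peroxiredoxins were 4 higher and 2 lower, and all 6 overlapped between the groups. They ranged from -0.23 (SE 0.14) for Prdx3, the mitochondrial peroxiredoxin, to 0.16 (SE 0.14) for Prdx5. Prdx1 differed by -0.13, Prdx2 by 0.075, Prdx4, the one of the endoplasmic reticulum, by 0.008, and Prdx6 by 0.12. Prdx2, Prdx4 and Prdx5 each lacked 1 occlusion array owing to an outlier spot, and Prdx2 and Prdx5 had saturated spots, which compress differences.

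The superoxide dismutases differed in sign. Sod2, the mitochondrial manganese enzyme, had 0.53, 0.26, 0.42 and 0.59 on the occlusion arrays, against 0.23, 0.33, -0.19 and 0.17 on the control arrays. Control 3, at -0.19, was the lowest array, and occlusion 2 lay among the control arrays; the difference was 0.32 (SE 0.14; limma, unadjusted p = 0.0533, adjusted p = 0.456), with 0.28 within slide 1 and 0.36 within slide 2. Without control 3 it was 0.21. Sod3, the secreted copper and zinc enzyme, leaned lower, at 0.54, 0.88, 0.67 and 0.86 on the occlusion arrays, against 1.41, 1.18, 1.47 and 0.73 on the control arrays. Control 4 lay among the occlusion arrays, and the other 3 control arrays were above all of them. Its difference of -0.46 (SE 0.18; limma, unadjusted p = 0.0322, adjusted p = 0.423) was the same in both slides to 2 decimals, -0.46 in each.

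Sod1, the cytosolic copper and zinc enzyme, was saturated on all 8 arrays, so its values only set a floor: 5.33, 5.48 and 4.99 on 3 occlusion arrays, against 5.34, 5.15 and 5.17 on 3 control arrays, with 1 array of each group left out for an outlier spot. No change of Sod1 could be seen on a saturated probe, and the fitted value of 0.045 carries no direction. Cat, the peroxisomal enzyme that splits hydrogen peroxide, had -0.79, -0.47, -0.99 and -0.30 on the occlusion arrays, against -0.15, -0.54, -0.31 and -0.78 on the control arrays. The groups overlapped, and the difference of -0.19 (SE 0.20) was -0.42 within slide 1 and 0.045 within slide 2.

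In the thioredoxin system 4 of 5 genes were higher and Txnrd1 was lower. Txn1, the cytosolic thioredoxin, had 5.22, 5.19, 5.28 and 4.79 on the occlusion arrays, against 4.91, 4.90, 4.71 and 5.02 on the control arrays. Occlusion 4 lay among the control arrays and the other 3 occlusion arrays were above all of them; the difference was 0.23 (SE 0.14; limma, unadjusted p = 0.13), from a probe saturated on at least 1 array. Txn2, the mitochondrial thioredoxin, differed by 0.13 (SE 0.094), Txnrd2 by 0.068 and Txnrd3 by 0.002.

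Txnrd1, the cytosolic thioredoxin reductase and an NRF2 target, had -0.14, -0.083, -0.18 and 0.077 on the occlusion arrays, against 0.22, 0.14, 0.50 and 0.23 on the control arrays on its brightest probe. All occlusion arrays were below all control arrays, with the nearest pair, 0.077 on occlusion 4 and 0.14 on control 2, both on slide 2. The difference was -0.35 (SE 0.12, 95% interval -0.62 to -0.084; limma, unadjusted p = 0.0161, adjusted p = 0.403), with -0.39 within slide 1 and -0.32 within slide 2. The gene had 4 kept probes, which did not give 1 answer, and they are shown for that reason. In rn3 the first 3 run on the minus strand like the transcript, at chr7:23076971-23077030, chr7:23075799-23075832 and chr7:23093333-23095211, and the last, designed on an expressed sequence tag, runs on the plus strand at chr7:23075875-23075934.
Txnrd1 probe 1: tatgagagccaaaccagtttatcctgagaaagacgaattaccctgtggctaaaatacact
Txnrd1 probe 2: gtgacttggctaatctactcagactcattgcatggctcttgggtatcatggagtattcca
Txnrd1 probe 3: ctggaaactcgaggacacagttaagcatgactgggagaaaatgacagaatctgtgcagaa
Txnrd1 probe 4: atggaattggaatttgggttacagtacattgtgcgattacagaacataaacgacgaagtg
Probe 2, near the brightest one, differed by -0.27 (SE 0.13). Probe 3, which lies farthest toward the 5′ end, differed by 0.16 (SE 0.23), and the opposite-strand probe 4 by 0.35 (SE 0.20). Probe 4 was dim, averaging -4.52 on occlusion and -4.87 on control arrays, and was well above background on 3 arrays of each group. The 2 probes at the 3′ side were thus below 0, and the probe at the 5′ side, with its wider error, was not.

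Of 10 genes with more than 1 probe on the array, 5 had more than 1 kept probe on the strand of the transcript. In Gpx1 and Gstt2 the probes had the same sign. Both Sod1 probes were saturated, on 8 and on 6 arrays, and give no direction. In Txnrd1 and Hmox2 the signs differed: the probes of Hmox2, the constitutive haem oxygenase, gave -0.05 (SE 0.14) and 0.15 (SE 0.13). Of 4 opposite-strand probes 3 were kept, and 2 of these belong to Gstm5, with 0.40 (SE 0.19) and 0.20 (SE 0.27) beside -0.10 on its own strand. These 2 were dim, averaging -4.59 and -4.31 on occlusion arrays, against -4.99 and -4.51 on control arrays. The first was well above background on 4 occlusion and 2 control arrays. Its occlusion arrays alone carried it past the filter, so its higher value is a description with no test.

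**Figure D3:**
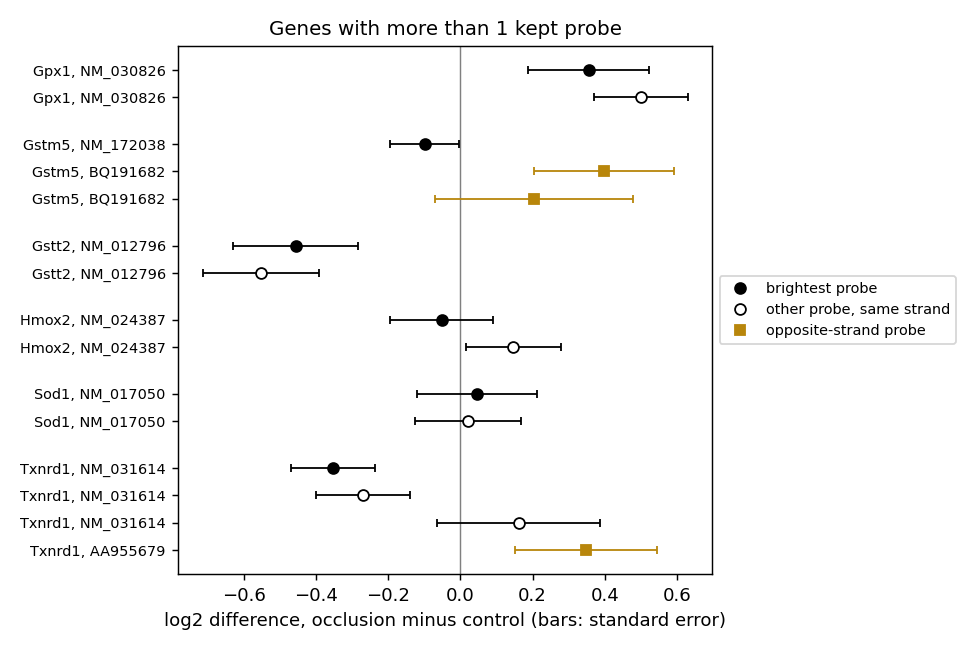
Log2 difference, occlusion minus control, for every kept probe of the antioxidant genes with more than 1 kept probe; bars are standard errors, filled circles the brightest probe, open circles other probes of the same strand and squares probes of the opposite strand. The Gpx1 and Gstt2 probes lie on 1 side of 0. Those of Txnrd1 run from -0.35 to 0.16 on the strand of the transcript, and its opposite-strand probe is at 0.35.

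Nqo1 and Hmox1, stress-inducible targets of NRF2 in many tissues, did not pass the test, and both differences were below 0. Nqo1, a quinone reductase, had -2.80, -3.18, -2.99 and -2.80 on the occlusion arrays, against -2.62, -2.75, -2.23 and -2.86 on the control arrays. The groups overlapped, with control 3 the highest array and occlusion 2 the lowest, and the difference was -0.33 (SE 0.16, 95% interval -0.70 to 0.047; limma, unadjusted p = 0.0788). Without control 3 it was -0.20. Hmox1, the inducible haem oxygenase, had -1.81, -1.98, -1.45 and -2.02 on the occlusion arrays, against -1.58, -1.89, -1.81 and -1.45 on the control arrays. Its arrays were mixed, and the interval of its difference of -0.14 was -0.51 to 0.24.

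**Figure D4:**
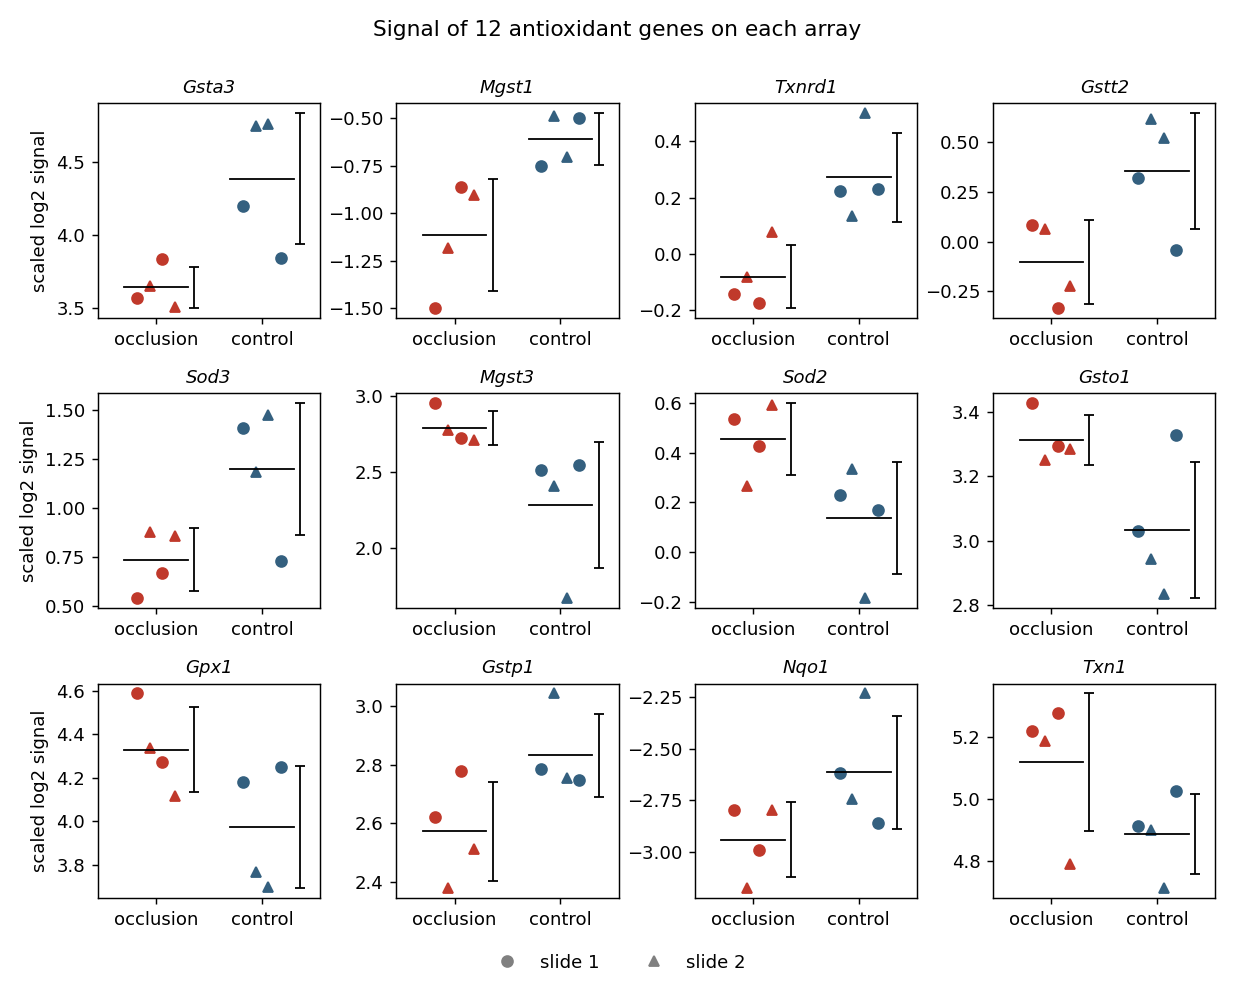
Scaled log2 signal of the 12 antioxidant genes with the smallest p on each array, occlusion left and control right, with circles for slide 1, triangles for slide 2, a line at the group mean and a bar of 1 SD either side (n = 4 arrays per group). Gsta3, Mgst1 and Txnrd1 are lower and Mgst3 is higher on every occlusion array, and the other 8 genes overlap.

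Between the slides, 3 members of low signal had lower values on slide 2: Gpx6, a peroxidase, and the mu class genes Gstm2 and Gstm4. In a limma fit of slide 2 against slide 1 with the group as a term, 7.17% of all probes passed an adjusted p of 0.05, 1.11% upwards and 6.05% downwards. Of the probes well above background on all 8 arrays 4.82% passed, and of the 41 members among them 1 did, Gstm2. It averaged -4.71 ± 0.37 on slide 2 and -3.73 ± 0.17 on slide 1 (SD, n = 4 each), a difference of -0.98 (adjusted p = 0.0156 in limma). Gpx6 and Gstm4 passed the filter on dim probes through the arrays of slide 1, so their slide values are a description with no test. Gstm4, whose transcript is now named Gstm3, was well above background on 1 of 4 arrays of slide 2 and averaged -5.59 ± 0.18 on slide 2 and -4.02 ± 0.67 on slide 1. Gpx6 cleared the background on 0 arrays of slide 2 and on all 4 of slide 1. It averaged -6.12 ± 0.15 on slide 2, against -5.10 ± 0.16 on slide 1, and was at least 1.41-fold lower on slide 2, counted from the lowest signal that clears the background there.

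For these dim genes the treatment groups were mixed. Gstm2 had -3.90, -4.61, -3.50 and -5.24 on the occlusion arrays, against -3.80, -4.43, -4.54 and -3.71 on the control arrays. Gstm4 had -3.93, -5.81, -4.42 and -5.59 on the occlusion arrays, against -4.62, -5.57, -5.38 and -3.11 on the control arrays. Gpx6 had -4.95, -6.11, -5.03 and -6.19 on the occlusion arrays, against -5.32, -6.26, -5.91 and -5.08 on the control arrays. In each, every array of slide 2 was below every array of slide 1, but these genes were picked for their small p between slides. The occlusion differences were -0.20, -0.27 and 0.068, with SEs of 0.38, 0.62 and 0.38. Hmox1, with the next smallest p for the slide, was -0.35 on slide 2 relative to slide 1 (SE 0.11, adjusted p = 0.147 in limma).

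Since each slide held 2 arrays of either group, the treatment could also be read within slides. Of the 43 members 31, or 72.1%, had the same sign in both, against 61.5% of all probes. The 4 genes that separated the groups were among them by necessity, since full separation fixes the sign within each slide. Of these, Mgst3 was at 0.31 within slide 1 and 0.71 within slide 2. Genes that changed sign included Cat, Gsr, Prdx1, Gss and Gpx7. With the slide as a block, 8 members had an unadjusted p under 0.05, against 14.2% of all probes, and 0 members and 0% of all probes passed the adjusted p of 0.05, the smallest among the members being 0.244.

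**Figure D5:**
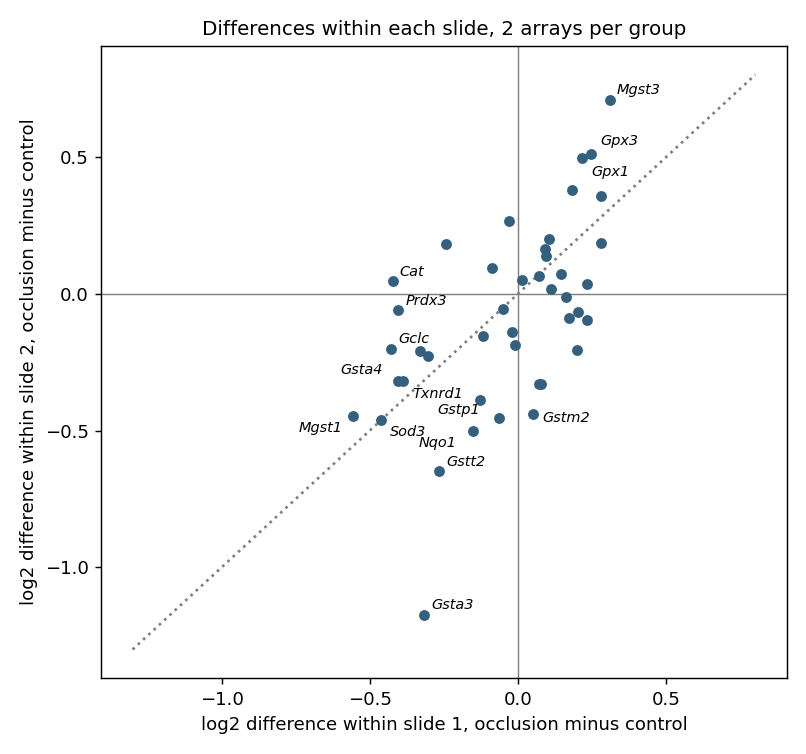
Log2 difference, occlusion minus control, of each of the 43 genes within slide 1 (horizontal) and within slide 2 (vertical), each from 2 arrays per group where no spot was an outlier; the dotted line marks equal differences. Mgst1, Txnrd1 and Sod3 lie near the line, and Gsta3 lies below it at -0.32 and -1.17.

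Other genes of the same chemistry were followed in 7 lists, chosen for their role: regulators around NRF2 and BACH1, thiol cofactors and repair enzymes, cystine and glutathione handling, NADPH supply, iron, haem and metal binding, selenoproteins with their synthesis, and sources of oxidants. Of 70 such genes that were kept and are no members, 39 were higher and 31 lower, none passed the adjusted p of 0.05 in limma, 6 had an unadjusted p under 0.05 (4 higher and 2 lower, against the 11.1% of all probes), and 2 separated the groups (against 6.71%). Of the 70, 3 were saturated on all 8 arrays and give no direction.

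Nfe2l2, which encodes NRF2, had 0.56, 1.12, 0.82 and 0.73 on the occlusion arrays, against 1.08, 1.49, 1.80 and 0.99 on the control arrays. Control 2 and control 3 were the highest arrays, and the difference was -0.53 (SE 0.21; limma, unadjusted p = 0.0316, adjusted p = 0.421). It was -0.34 within slide 1 and -0.72 within slide 2. Keap1, which encodes the protein that targets NRF2 for degradation, had 1.27, 1.60, 1.69 and 1.33 on the occlusion arrays, against 1.32, 1.21, 1.26 and 1.44 on the control arrays. The difference of Keap1 was 0.16 (SE 0.13), and 4 of the 9 kept regulators were higher and 5 lower.

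In cystine and glutathione handling, 9 of 14 genes were higher. Slc1a1, a glutamate transporter that also carries cysteine into neurons, had 0.91, 0.81, 0.78 and 0.94 on the occlusion arrays, against 0.36, -0.026, 0.68 and 0.73 on the control arrays. All its occlusion arrays were above all its control arrays (difference 0.42, SE 0.17; limma, unadjusted p = 0.0401, adjusted p = 0.433). Without control 2 the difference was 0.27.

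Among the metal-binding genes, Mt1, a metallothionein, had 0.89, 1.05, 0.62 and 0.63 on the occlusion arrays, against 1.36, 1.38, 1.40 and 0.90 on the control arrays. Control 4 lay among the occlusion arrays and the other control arrays above them all, with a difference of -0.47 (SE 0.16; limma, unadjusted p = 0.0187, adjusted p = 0.403). Slc40a1, the iron exporter ferroportin, had -2.78, -2.47, -4.26 and -3.16 on the occlusion arrays, against -3.53, -4.34, -4.97 and -3.72 on the control arrays. Its difference of 0.98 (SE 0.44) came mainly from slide 2, at 1.85, against 0.11 within slide 1. Of the 9 kept genes of that list 5 were higher and 4 lower, and none separated the groups.

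Selenow, a small selenoprotein, had 3.57, 3.24, 3.39 and 3.67 on the occlusion arrays, against 2.94, 2.93, 3.16 and 3.27 on the control arrays. Occlusion 2, at 3.24, was just below control 4, and the difference was 0.39 (SE 0.14; limma, unadjusted p = 0.0206, adjusted p = 0.403). Sephs1, a selenophosphate synthetase paralogue, separated the groups downwards, at -0.21, -0.15, -0.17 and -0.27 on the occlusion arrays, against -0.005, -0.019, 0.001 and -0.080 on the control arrays, by -0.17 (SE 0.088). Of the 9 kept selenoprotein genes 4 were higher and 5 lower.

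The remaining lists held smaller differences. Among thiol cofactors and repair enzymes, Sesn1, a sestrin, had 0.36, 0.43, 0.027 and 0.27 on the occlusion arrays, against 0.60, 0.26, 0.71 and 0.70 on the control arrays, a difference of -0.29 (SE 0.14). Glrx5, the mitochondrial glutaredoxin of iron-sulphur cluster assembly, had 4.27, 4.21, 4.27 and 4.11 on the occlusion arrays, against 4.12, 4.001, 3.85 and 4.06 on the control arrays, a difference of 0.21 (SE 0.10). Both overlapped between the groups, in a list with 8 genes higher and 6 lower. In NADPH supply, Me1, malic enzyme, had 2.32, 1.90, 2.03 and 2.18 on the occlusion arrays, against 2.03, 1.84, 1.24 and 2.05 on the control arrays, a difference of 0.32 (SE 0.20) that was 0.13 without control 3. Idh2, the mitochondrial isocitrate dehydrogenase, had 4.16, 3.96, 4.17 and 3.73 on the occlusion arrays, against 4.11, 4.15, 4.13 and 4.08 on the control arrays, a difference of -0.11 (SE 0.12), in a list with 5 higher and 3 lower. Among oxidant sources, Ncf1, a subunit of the phagocyte NADPH oxidase, had -1.20, -1.71, -1.49 and -1.35 on the occlusion arrays, against -1.82, -1.72, -1.53 and -1.66 on the control arrays, a difference of 0.24 (SE 0.13). Nos3, endothelial nitric oxide synthase, had -1.43, -1.40, -1.22 and -1.46 on the occlusion arrays, against -1.45, -1.58, -1.68 and -1.48 on the control arrays, a difference of 0.17 (SE 0.11), in a list with 4 higher and 3 lower. All 4 of these genes overlapped between the groups.

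The promoters of the members were searched for the core of the antioxidant response element, TGACNNNGC on either strand, which can overlap the AP-1 site TGACTCA. RefSeq promoters of GRCr8, from 250 bases before to 50 after a gene's start, were found for 35 of the kept genes, 40 promoters in all. Of these 10, or 25.0%, held the core, against 12.1% of the 33469 promoters of the table; TGACTCA was in 4, or 10.0%, against 4.63%. The 10 belong to Gsta1 (Gsta3 on the array), Gstm5, Gstm7 (Gstm3 on the array), Gstp1, Hmox2, Prdx1, Prdx4, Prdx5, Sod2 and Txnrd1. Among them Gsta3 and, on its brightest probe, Txnrd1 were lower on all occlusion arrays, and the probe named Gstp1 was lower on 3 of 4. Other probes of these genes gave -0.13 for Gstp2, now Gstp1, and 0.16 for the 5′ side probe of Txnrd1. Sod2 and Prdx5 had differences above 0, so genes with the core had both signs. A match is a stretch of letters and no measured site. Nqo1 and Gclc had no match in this window, and no promoter was found for Hmox1. Sequence farther upstream was not searched, so a gene without a match may still hold the core elsewhere. The promoters of Gstp1 (GRCr8, chr1:210769656-210769955, minus strand) and Txnrd1 (GRCr8, chr7:22755855-22756154, minus strand) are shown with the match in capitals. It begins at position -61 from the gene's start in Gstp1, where it contains TGACTCA, and at -78 in Txnrd1, where the core reads on the opposite strand.
Gstp1 promoter: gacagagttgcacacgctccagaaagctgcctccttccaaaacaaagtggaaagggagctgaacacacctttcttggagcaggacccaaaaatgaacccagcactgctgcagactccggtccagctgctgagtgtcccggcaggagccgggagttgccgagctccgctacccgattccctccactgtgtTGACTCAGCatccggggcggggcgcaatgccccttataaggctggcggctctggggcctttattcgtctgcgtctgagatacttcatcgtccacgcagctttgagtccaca
Txnrd1 promoter: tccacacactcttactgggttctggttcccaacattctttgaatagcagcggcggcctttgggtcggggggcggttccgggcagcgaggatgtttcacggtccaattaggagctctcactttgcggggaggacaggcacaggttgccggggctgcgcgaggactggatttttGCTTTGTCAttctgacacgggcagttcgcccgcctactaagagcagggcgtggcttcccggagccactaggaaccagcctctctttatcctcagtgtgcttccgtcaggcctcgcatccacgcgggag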

How the data were processed

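Medial thalamus RNA of 4 occlusion and 4 control rats was measured on 8 arrays with 1 channel each, although the design text speaks of a reference design. Per the file headers, spots were read by the authors with Feature Extraction (Agilent, version 9.5.1.1), giving each a processed intensity: linear, background-subtracted and detrended, with no scaling from array to array. Their deposited summary table repeats these intensities in rounded form, to within 0.497%. Control spots and outlier spots were left out, log2 of the processed intensity minus each array's 75th percentile was taken, and spots of a probe were averaged. A kept probe was well above background on at least 4 of 8 arrays and had at least 2 values per group. Groups were compared with limma 3.58.1 in R 4.3.3 (two-sided tests, adjusted by the Benjamini-Hochberg method across the 27161 kept probes), and the fit was tested on simulated data. The design text names 4 animals per group, and their number limits the precision.

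Positions of probes are those of the files (rn3), and no exon or UTR is assigned to them. Symbols were brought up to date through RefSeq accessions and synonyms (GRCr8, names only). The members and lists were chosen with earlier results of these data known. Values on every array are given for the 12 members with the smallest p, the 4 with the smallest p between slides, a fixed set of well-known members, and the 2 genes with the smallest p in each related list, of which 1 is not reported here. Alternatives were other scalings, background correction, filters on dim probes, the slide or the replicate number as a block, each slide alone, the deposited table, other rules for several probes, and leaving out each array.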

Additional observations from a re-analysis of the deposited data

Results flagged for a closer look

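The 22 members given with values by array form 44 groups, of 4 arrays each but of 3 for Sod1. Of these groups, 2 held an array that stood apart by Dixon's criterion at 95%, which chance alone meets in about 1 group of 20. Mgst3 on control 3 was at 1.67, with the other control arrays between 2.40 and 2.54. Control 3 is also the array with the lowest relay neuron and the highest inhibitory neuron marker mean. Gstp1 on control 2 was at 3.04, with the other control arrays between 2.75 and 2.79.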

How the results depend on the processing

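No member passed the adjusted p of 0.05 under any alternative run, and the smallest adjusted p of a named gene was 0.139, without control replicate 4. Over all probes, 1 passed with normexp background correction (adjusted p = 0.0478), and 0 under the others. Of 681 values of named genes under the alternatives 664 kept their direction and their side of the threshold, and 17 changed direction. In the full fit, each gene that changed direction differed by less than its SE, the largest difference being that of Gstm4, -0.27 (SE 0.62). Sod1 was -0.021 with quantile normalisation, -0.012 within slide 2 and -0.021 with the replicate number as a block. Gstm2 was 0.051 and Idh2 0.066 within slide 1, and Gpx6 was -0.066 and Cat 0.045 within slide 2. With 1 array left out at a time, Gpx6 ranged from -0.138 to 0.275, Gstm2 from -0.465 to 0.113, Gstm4 from -0.604 to 0.253, Sod1 from -0.060 to 0.183 and Gstm1 from -0.210 to 0.012. Without 1 array the difference of Gsta4 fell in size to -0.174, Gclc to -0.145, Nqo1 to -0.199, Cat to -0.070, Mgst3 to 0.303, Sod2 to 0.210, Me1 to 0.134, Slc1a1 to 0.269 and Keap1 to 0.091, each by more than 1.5 times, and those of Hmox1, Gpx4 and Idh2, small in the full fit, also moved by more than that. The number of members whose groups do not overlap, 4, was 2 with normexp (Gsta3 and Mgst1 overlapped), 20 within slide 1 and 21 within slide 2, where only 2 arrays stand against 2, and 4 to 9 with 1 array left out, where fewer arrays make separation easier. It was 7 without occlusion replicate 2, 3 or 4 and 9 without control replicate 4. Taking the 75th percentile without outlier spots, an alternative chosen after seeing the data, gave 3. Over all probes the share without overlap was 6.17% with normexp and 6.37% with that percentile. It was 41.1% within slide 1, where 40 members were tested, and 42.7% within slide 2, where 42 were. With 1 array left out it ran from 8.50% to 16.2%, the highest without control replicate 4. Without occlusion replicate 2, 3 or 4 it was 10.5%, 11.3% and 15.3%. The correlation of deviations between same-numbered arrays was 0.355 and 0.514 for numbers 1 and 2 and -0.071 and -0.282 for numbers 3 and 4, so the numbers were not taken to pair the animals, and the replicate block gave 0 calls. Saturation limits Sod1 throughout and Txn1, Prdx2, Prdx5 and Gstp2 on some arrays, and background limits Gpx6 and Gstm4.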
